A study of Mus musculus with 2 samples.

Results

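The genes described here are Mir130a, Mir130b, Mir301 and Mir301b, the 4 members of the miR-130 and miR-301 family that were followed by name among 2202 miRNA genes counted in mouse adrenal gland. All 4 were matched by identifier to the GENCODE M21 annotation, and all 4 reached 10 counts in each library. They were chosen by name with the counts of both libraries known, and selected on measured values in 1 respect: the higher count of Mir301 in replicate 2 than in replicate 1. Levels and differences between the libraries are therefore given as descriptions, with no test.

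The series measured small RNA in the adrenal gland of B6CASTF1/J mice, first-generation offspring of a cross between the strains C57BL/6J and CAST/EiJ. It holds 1 group, untreated as far as the labels say, of 2 libraries from females aged 14 days. Replicate 1 carries a label for 3 females and replicate 2 a label for 1 numbered female, and both libraries name the same donor. The labels do not say whether the females of replicate 1 were pooled. Replicate 1 had 3797107 counts on miRNA genes and replicate 2 had 5034257. Tables of miRNA counts hold no steroidogenic or chromaffin messenger RNA, so the tissue label could not be checked against defining adrenal genes.

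A miRNA is cut from a hairpin precursor and guides a silencing complex to messenger RNAs, mainly through its seed, bases 2 to 8 from the 5′ end. Members of the miR-130 and miR-301 family share that seed and are therefore predicted to bind overlapping sets of targets. The family is best known from blood vessels, where miR-130a represses antiangiogenic homeobox genes in endothelial cells, and from studies of fibrosis and of tumour growth.

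The sequences that define the family are shown first, from RefSeq on build GRCm38.p6, with the seed in capitals. The mature 3p sequences of Mir130a, Mir130b and Mir301 are as follows. The product of Mir301 is named miR-301a.
miR-130a-3p: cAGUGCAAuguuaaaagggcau
miR-130b-3p: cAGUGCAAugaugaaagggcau
miR-301a-3p: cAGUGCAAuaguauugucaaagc

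The hairpins are printed because the deposited counts are per hairpin gene and do not tell the 5p arm from the 3p arm. For Mir301b the hairpin is what the table used here gives for the stretch with the seed.
Mir130a: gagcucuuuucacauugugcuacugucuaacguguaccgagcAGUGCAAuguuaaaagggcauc
Mir130b: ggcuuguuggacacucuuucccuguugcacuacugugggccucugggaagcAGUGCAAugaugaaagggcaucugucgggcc
Mir301: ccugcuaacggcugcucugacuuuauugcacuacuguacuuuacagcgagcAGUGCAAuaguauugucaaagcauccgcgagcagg
Mir301b: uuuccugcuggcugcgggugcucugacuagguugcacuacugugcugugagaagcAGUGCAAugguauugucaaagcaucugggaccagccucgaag

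The seed occurred once in each hairpin, inside a stretch of 11 bases, AGCAGUGCAAU, common to all 4. Counted from 1 at the 5′ end, miR-130a-3p and miR-130b-3p differed by 2 substitutions over 22 bases, U11A and A13G. The 23 bases of miR-301a-3p differed by 1 substitution, A10G, from the matching stretch of the Mir301b hairpin. Between miR-130a-3p and miR-301a-3p the first 9 bases were shared and 10 of 22 differed. The family thus falls into a miR-130 pair and a miR-301 pair that part after the seed. Each of these 4 sequences had an exact copy in 1 annotated hairpin and in the transcripts of 1 GENCODE M21 gene, its own. How reads with a mismatch were assigned between Mir301 and Mir301b is not given in the sources.

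The opposite arms carry the partner of the seed in the stem. Here the capitals mark a stretch of 10 bases, UUGCACUACU, that the 5p sequences of Mir130b, Mir301 and Mir301b share and that contains UUGCACU, the reverse complement of the seed. The 5p sequence of Mir130a does not contain it.
miR-130a-5p: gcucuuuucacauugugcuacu
miR-130b-5p: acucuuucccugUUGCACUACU
miR-301a-5p: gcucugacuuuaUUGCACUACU
miR-301b-5p: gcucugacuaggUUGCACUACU

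The 4 genes lie at 3 loci on build mm10. Mir130a (ENSMUSG00000065484.1) is intergenic, at chr2:84741115-84741178 on the minus strand. Its nearest protein-coding genes are Gm19426, 991 bases away on the same strand, and Ypel4, 2460 bases away on the plus strand. Mir301 (ENSMUSG00000065589.1) lies at chr11:87113004-87113089 on the plus strand, in intron 1 of Ska2, which encodes a subunit of the spindle and kinetochore associated complex used in mitosis. It begins 3770 bases after the annotated start of Ska2, in an intron of 6799 bases, on the strand of its host. Mir130b (ENSMUSG00000065572.1) and Mir301b (ENSMUSG00000076288.1) lie 257 bases apart on the minus strand, at chr16:17124061-17124142 and chr16:17124400-17124496. Both sit in intron 1, of 1335 bases, of the protein-coding gene 2610318N02Rik, again on the strand of the host. No other annotated miRNA gene lies within 10 kb of any of the 4.

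Mir130a, the member best known from endothelium, made up most of the family in both libraries. It had 22839 counts in replicate 1, or 6015 CPM (counts scaled to the library's total of miRNA counts), and 22137 counts in replicate 2, or 4397 CPM. The mean was 5206 ± 1144 CPM (SD, n = 2 for this and every mean below), and Mir130a stood 31st and 35th in order of count among all miRNA genes. It took 0.601% of the miRNA counts of replicate 1, with a Wilson 95% interval of 0.594 to 0.609, and 0.440% of those of replicate 2, with one of 0.434 to 0.446. Counts alone were nearly equal in the libraries, and the lower CPM in replicate 2 goes with that library's larger total, of which the hepatocyte gene Mir122 held 214538 CPM.

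Mir130b had 1752 counts in replicate 1 and 1033 in replicate 2. These stood for 461 and 205 CPM, a mean of 333 ± 181 CPM. Mir301 showed the reverse order of the libraries, with 403 counts (106 CPM) in replicate 1 and 3132 counts (622 CPM) in replicate 2. Its mean of 364 CPM had an SD of 365, as large as the mean itself. Mir301b was scarce, with 28 and 23 counts, or 7.37 and 4.57 CPM and a mean of 5.97 ± 1.98 CPM. It lay above the limit that a count of 0 allows, 3 counts, which stood for 0.790 CPM in replicate 1 and 0.596 CPM in replicate 2. Reads had no molecular identifiers, so all intervals and limits here cover counting error only.

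**Figure D1:**
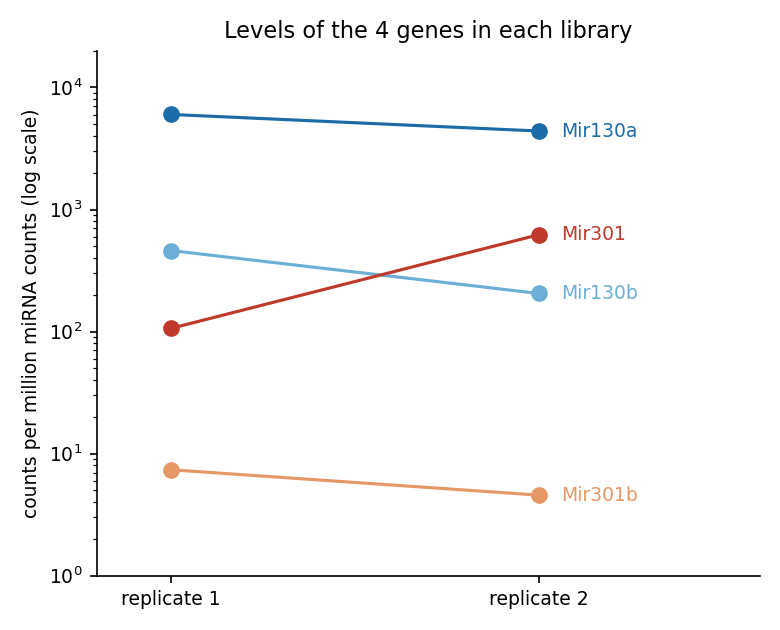
CPM (log axis) of Mir130a, Mir130b, Mir301 and Mir301b in the 2 libraries, 1 point per library and a line per gene. Mir130b stands at 461 CPM and Mir301 at 106 CPM in replicate 1, and the lines of these genes cross so that they stand at 205 and 622 CPM in replicate 2.

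By level, the order was Mir130a, Mir130b, Mir301, Mir301b in replicate 1, and Mir130a, Mir301, Mir130b, Mir301b in replicate 2. A read of a miRNA spans the mature molecule, but the same orders held when CPM was divided by the annotated hairpin length. Per base, Mir130a stood at 94.0 and 68.7 CPM, Mir130b at 5.63 and 2.50 CPM, Mir301 at 1.23 and 7.23 CPM and Mir301b at 0.0760 and 0.0471 CPM. Neighbouring means of Mir130b and Mir301 did not differ beyond their spread. Mir130a above and Mir301b below were apart from them in both libraries.

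Together the 4 genes held 0.591% ± 0.0962 of the miRNA counts. By library their share was 0.659% in replicate 1, with a Wilson 95% interval of 0.651 to 0.667, and 0.523% in replicate 2, with one of 0.517 to 0.529. Within the family, Mir130a took 91.3% of the 25022 counts in replicate 1 and 84.1% of the 26325 counts in replicate 2. Mir130b took 7.00% and 3.92%. Mir301 took 1.61% in replicate 1 (1.46 to 1.77) and 11.9% in replicate 2 (11.5 to 12.3). Mir301b took 0.112% and 0.0874%. The make-up of the family therefore differed mainly in how much of it was Mir301.

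**Figure D2:**
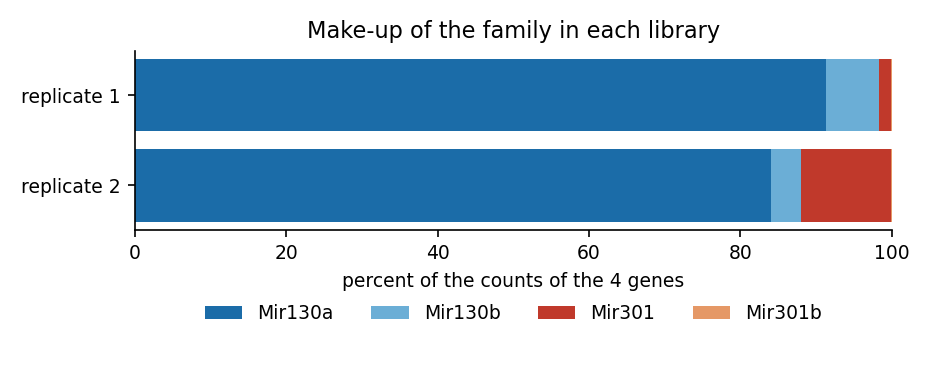
Percent of the counts of the 4 genes that each gene held, 1 bar per library and colours for genes. Mir130a fills 91.3% and 84.1% of the bars, Mir301 fills 1.61% in replicate 1 and 11.9% in replicate 2, and Mir301b, at 0.112% and 0.0874%, is too thin to see.

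The shift of Mir301 between the libraries was set against those of its relatives. The log2 ratio of replicate 2 over replicate 1, after TMM scaling (a trimmed mean that balances the bulk of genes) and with a prior count of 0.5, was 2.98 for Mir301, with an exact Clopper-Pearson 95% counting interval of 2.83 to 3.13. That is 7.89-fold higher in replicate 2. Mir130a had a log2 ratio of -0.02 (-0.05 to 0.00), Mir301b of -0.26 (-1.12 to 0.59) and Mir130b of -0.74 (-0.85 to -0.63). Mir301 lay 3.24 above the median of its 3 relatives on this log2 scale, a gap of 9.42-fold. The median relative was Mir301b, whose few counts leave an interval of 2.38 to 4.12 for that gap. Each side of these ratios is 1 library, so the spread between animals is not measured.

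Of all 358 genes with at least 10 counts in each library, 33 (9.22%) were at least 2-fold higher in replicate 2 and 31 (8.66%) at least 2-fold lower, 17.9% in either direction. Of the 4 family members, 1 was higher by that measure, none was lower and 3 lay within 2-fold. Since Mir301 was in view when the genes were chosen, nothing is read from that count. The median log2 ratio was -0.06 over all 358 genes. When each library was scaled by its total alone, the median moved to -0.48, and 19 genes were higher and 78 lower. Under library totals Mir301 stood at 2.55, Mir130a at -0.45, Mir301b at -0.68 and Mir130b at -1.17, the last then past 2-fold. Mir130a also changed sign with the setting and stood at 0.03 with DESeq2 size factors. The order of the 4 ratios was the same under all 11 settings computed. Most of these change only the scaling factors, which shift all 4 ratios nearly alike, so they could hardly have altered the order.

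**Figure D3:**
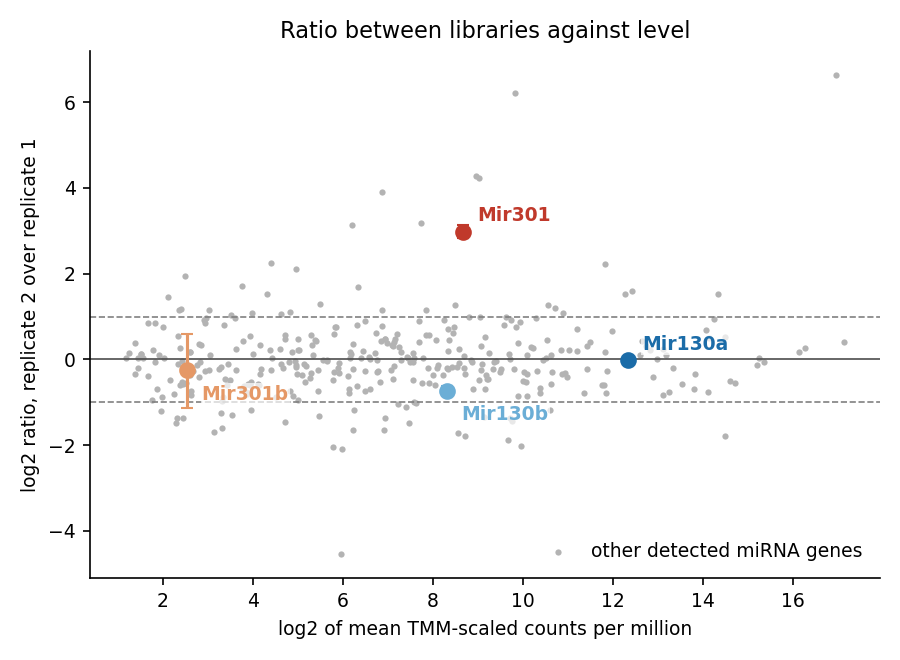
Log2 ratio of replicate 2 over replicate 1 against the log2 of mean TMM-scaled CPM for the 358 detected genes (grey points), with the 4 family members in colour and 95% counting intervals as bars; dashed lines mark 2-fold. Mir301, at 2.98, lies above the upper dashed line among few other genes, while Mir130a, Mir301b and Mir130b lie between the dashed lines at -0.02, -0.26 and -0.74.

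Ratios between genes of the same library need no scaling. There were 56.7 counts of Mir130a for each count of Mir301 in replicate 1 and 7.07 in replicate 2. Mir130b outnumbered Mir301 by 4.35 to 1 in replicate 1, and Mir301 outnumbered Mir130b by 3.03 to 1 in replicate 2. On the log2 scale the ratio of Mir301 to Mir130b differed between the libraries by 3.72 (exact conditional 95% interval 3.53 to 3.91) and that of Mir301 to Mir130a by 3.00 (2.85 to 3.16). Mir301 stood at 14.4 counts per count of its near-identical relative Mir301b in replicate 1 and at 136 in replicate 2. The few counts of Mir301b thus did not follow those of Mir301.

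**Figure D4:**
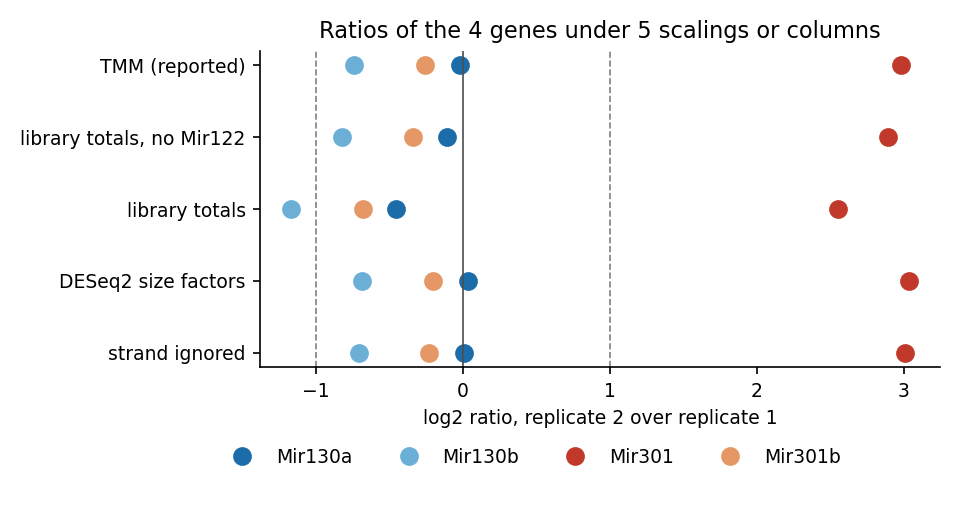
Log2 ratio of replicate 2 over replicate 1 (horizontal axis) for the 4 genes under TMM, library totals with and without Mir122, DESeq2 size factors, and counts that ignore strand; dashed lines mark 2-fold. Mir301 lies between 2.55 and 3.04 in these rows, and Mir130b passes the dashed line only with library totals, at -1.17.

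The pair on chromosome 16 was compared as a locus. Mir130b and Mir301b share a host intron and strand, yet differed in level by 62.6 to 1 in replicate 1 and 44.9 to 1 in replicate 2. Among 114 pairs of adjacent detected miRNA genes on 1 strand under 10 kb apart, the median difference in level was 4.32-fold, and this pair, at 53.0-fold over both libraries, stood 11th. The pairs were not filtered for genes with a copied mature sequence, such as Mir19b-1, in pairs ranked above this one. Reads with several mapping places are left out of the counts, so levels of such genes are uncertain, and the median and the place carry that limit. Between the libraries the log2 ratio of Mir130b to Mir301b differed by -0.48, with an interval of -1.33 to 0.39. With the few counts of Mir301b, that interval takes in equal shifts as well as a difference past 2-fold, so likeness of the shifts is not shown. The absolute difference of log2 ratios in this pair, 0.48, stood beside a median of 0.68 over the 114 pairs, of which 46 had a smaller one.

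Intron hosts were common among detected genes. In all, 121 detected genes lay in an intron of a protein-coding gene on the host's strand, Mir301, Mir130b and Mir301b among them. Of these 121, 13 (10.7%) were at least 2-fold higher in replicate 2 and 5 (4.13%) at least 2-fold lower, 14.9% in either direction, with a median log2 ratio of -0.02. Over all 358 detected genes the shares were 9.22%, 8.66% and 17.9%. With library totals the intronic genes split into 10 higher and 25 lower, beside 19 and 78 over all. Mir301 was thus 1 of 13 intronic genes higher by 2-fold after TMM scaling. The tables hold no counts for Ska2 or 2610318N02Rik, so host and miRNA could not be compared.

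Ratios were ranked over the 261 genes that averaged 100 or more counts, of which 8.81% were at least 2-fold higher in replicate 2 and 8.43% lower, 17.2% in either direction. Mir301 stood 8th from the top. Above it were Mir122, Mir206, Mir192, Mir483, Mir200b, Mir194-2 and Mir429, from 6.64 down to 3.13 on the log2 scale, and next below it Mir195a at 2.23. Of these 7, Mir122 is on the list used for hepatocytes, Mir206 on that for skeletal muscle, and Mir192 and Mir194-2 on that for kidney and gut. Mir200b and Mir429 are on the epithelial list. A place on a list does not make a gene exclusive to that cell type. Only Mir483, in the growth factor gene Igf2, is on none of the marker lists used. With genes that share a mature sequence left out, Mir301 stood 7th.

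The markers of other cell types are given beside Mir301 as measured. Sums are CPM by library total, of which Mir122 held more in replicate 2, whereas counts of genes past 2-fold and log2 ratios are after TMM scaling. Over all 358 detected genes, 9.22% were higher and 8.66% lower by 2-fold. The hepatocyte marker Mir122 stood at 2896 CPM in replicate 1 and 214538 CPM in replicate 2. The 8 skeletal muscle markers summed to 31.3 and 1568 CPM, nearly all from Mir206, with 2 detected, both at least 2-fold higher in replicate 2, and with Mir1a-1, Mir133a-1 and Mir133a-2 at 0 in both libraries. Reads with several mapping places do not enter the counts, so a 0 for a gene with a numbered copy does not show absence. For the same reason the counts of detected genes with a numbered copy, such as Mir194-2 and Mir199a-2 below, are uncertain. The 4 kidney and gut markers summed to 109 and 1155 CPM, and both of the 2 detected were higher. The 5 epithelial markers summed to 113 and 350 CPM, with 3 higher, 1 lower (Mir141) and 1 within 2-fold, Mir200c at -0.73. The 3 higher were Mir200a, Mir200b and Mir429, all in the host gene Ttll10. With library totals Mir200c was past 2-fold lower. The 3 erythroid markers summed to 2236 and 560 CPM, with 1 lower (Mir451a) and all 3 log2 ratios below 0. The 5 leukocyte markers summed to 3421 and 2196 CPM, with 1 lower, Mir142 at -1.44. The other 4 had log2 ratios above 0, from 0.03 (Mir155) to 0.61 (Mir150), and the list median was 0.27. With library totals 1 of the 5 lay above 0. The 5 smooth muscle and stromal markers summed to 47885 and 34891 CPM, with 2 higher (Mir145a and Mir214) and 1 lower (Mir199a-2) of 4 detected and a median log2 ratio of 0.48. With library totals none of these 4 was past 2-fold higher. Both endothelial markers lay within 2-fold, with sums of 142275 and 140634 CPM. Of the 4 neuroendocrine entries, 2 matched an annotated symbol, Mir375 and Mir7b, and their sum was 38618 and 19971 CPM, both within 2-fold, though Mir7b passed 2-fold lower with library totals. The part of these differences in the value of Mir301 was not tested.

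Genes nearest to each member in level in both libraries were found by Euclidean distance in log2 CPM. With 2 libraries, such likeness rests on 2 values per gene. Nearest to Mir130a were Mir151, Mir98 and Mir191, with distances of 0.05, 0.12 and 0.39. Nearest to Mir130b were Mir598, Mir467e and Mir300, at 0.12, 0.28 and 0.38. Nothing lay as close to Mir301, whose nearest genes Mir483, Mir192 and Mir296 were 0.93, 0.99 and 1.30 away. Mir301b lay below the 100 counts required of the genes searched, and its nearest, Mir103-2, Mir294 and Mir378d, were 2.74 to 2.95 away.

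Other genes annotated with the seed of the family gave no counts. Mir130c, Mir721, Mir6341 and Mir6389 each had 0 counts in both libraries, which allows up to 0.790 CPM in replicate 1 and 0.596 CPM in replicate 2. Their sequences are shown because the seed, again in capitals, is the same while the remainder differs. Reads with several mapping places stand on a summary line of the tables and do not enter these values.
miR-130c: cAGUGCAAuguuccaaggugug
miR-721: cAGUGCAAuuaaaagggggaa
miR-6341: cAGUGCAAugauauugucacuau
miR-6389: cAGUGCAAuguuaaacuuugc

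A further set shares 6 bases of the seed at another position. In the miR-148 and miR-152 sequences these bases are AGUGCA at positions 3 to 8, and in the miR-19 sequences GUGCAA at positions 2 to 7, as the capitals mark.
miR-148a-3p: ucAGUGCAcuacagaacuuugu
miR-152-3p: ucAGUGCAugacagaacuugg
miR-19b-3p: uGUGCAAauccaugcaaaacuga

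Of these 6 genes, 4 were detected, 0 were past 2-fold in either direction, beside 17.9% of all detected genes, and their median log2 ratio was 0.50 beside -0.06. With DESeq2 size factors 1 of them, Mir148a, was past 2-fold higher. For Mir148a the counts were 2319 and 4509 and the log2 ratio 0.98, with a counting interval of 0.91 to 1.06. Mir148b had 437 and 477 counts and a ratio of 0.15 (-0.04 to 0.34), and Mir152, in an intron of Copz2, had 2858 and 2191 counts and -0.36 (-0.44 to -0.28). Mir19b-1 had 11 and 20 counts and a ratio of 0.86 (-0.25 to 2.09), Mir19a 3 and 2 counts, and Mir19b-2 1 and 0. The miR-19b sequence has a second annotated gene, so the counts of either copy are uncertain. The median of 0.50 takes in Mir19b-1, and without that gene the middle value is the 0.15 of Mir148b. Mir148a was the member of this set closest to the 2-fold line, far below Mir301.

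The spread of ratios in the family was set beside that of other seed groups. In 20 groups of at least 3 detected genes with the same bases 2 to 8 on an annotated arm, some of them overlapping, the range of log2 ratios had a median of 1.48. These groups are not complete. Mir34c was detected but is missing from the group of Mir34a and Mir34b, as are Mir30b and Mir30d from that of Mir30a. Mir302a is missing from that of Mir302b and Mir302d. Mir301b was kept with its family, though its seed was given only in the hairpin. A missing gene can only leave a range too small, so the median and the places carry that limit. The miR-130 and miR-301 family ranged over 3.72, from -0.74 to 2.98, and stood 3rd. Ahead of it were the group of Mir26a-1, Mir26a-2 and Mir26b, at 5.07, and that of Mir200b, Mir200c and Mir429, at 4.62. The first of these holds identical gene copies, whose counts are uncertain. In the miR-130 and miR-301 family, Mir130a, Mir130b and Mir301b lay between -0.74 and -0.02, and Mir301 set the upper end of the range. The ratio of Mir130a to Mir130b differed between the libraries by 0.72 (0.60 to 0.83), and the value of Mir301b rests on 28 and 23 counts. The genes were chosen with Mir301 in view, so nothing is read from the place of the family. The groups also differed in size, and a range can only widen as genes are added. The summed counts of the 4 genes, which carry 1 seed, gave 0.10 on the log2 scale, with a counting interval of 0.07 to 0.12, and -0.06 without Mir301. Under library totals the sum stood at -0.33. The 7.89-fold difference of Mir301 thus left the sum nearly level after TMM scaling, as Mir130a held over 84% of it.

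**Figure D5:**
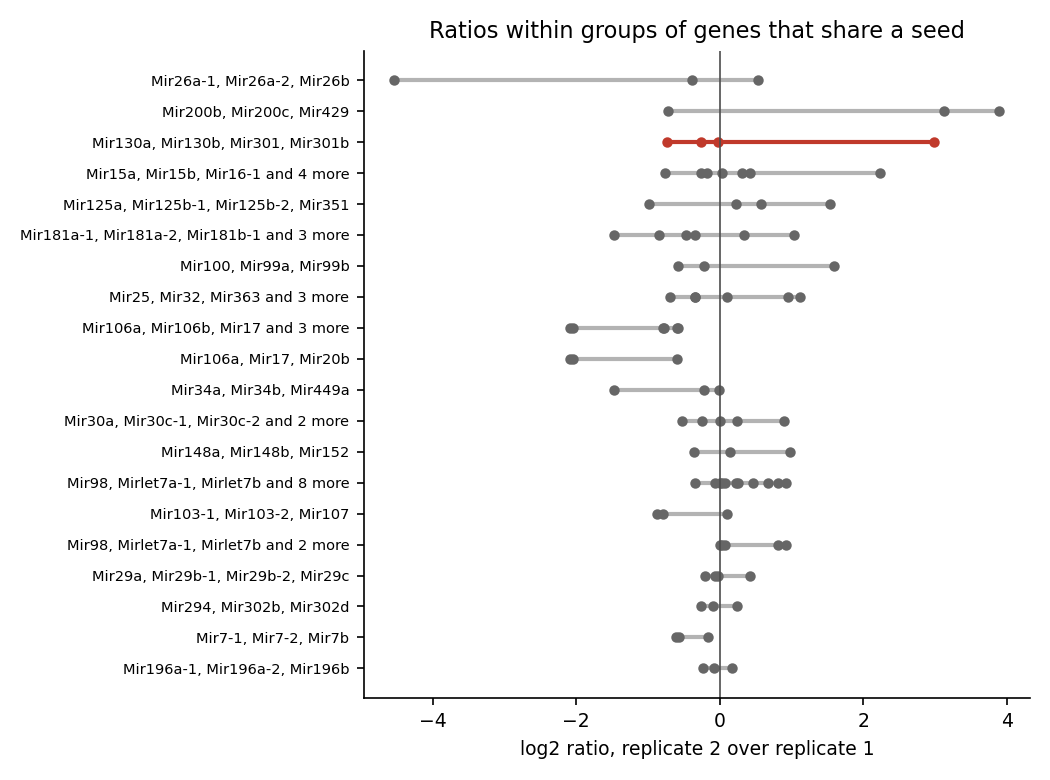
Log2 ratio of replicate 2 over replicate 1 (horizontal axis) of the detected genes placed in 20 groups that share bases 2 to 8, 1 row per group with a line from lowest to highest, ordered by range. The groups are not complete. The miR-130 and miR-301 family (red) has the third widest row, with 3 genes between -0.74 and -0.02 and Mir301 at 2.98.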

How the data were processed

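Small RNA libraries from adrenal gland, 2 in 1 group, were analysed. For each library the authors deposited a table of unnormalized counts by miRNA gene, on build mm10 with annotation M21 per the text files beside the tables. The sources used here name no aligner, counter or trimming. The tables hold 3 count columns, 4 summary lines and 2202 genes, all matched in GENCODE M21. The second count column was read, from its values, as the gene's own strand. Of the neuroendocrine list, Mir7a-1 and Mir7a-2 matched no annotated symbol (M21 has Mir7-1 and Mir7-2, which were not summed). Mapping to several places took 28.0% of reads in replicate 1 and 25.0% in replicate 2. These reads and the other summary lines stayed out of library sizes. TMM factors, 1.16 and 0.862, came from edgeR 4.0.16 on genes with 10 counts in each library. DESeq2 1.42.0 gave other size factors. Intervals and ratios used Python 3.11.15 and scipy 1.17.1. They ran as intended on counts simulated with counting error only and with known scaling, which does not cover TMM scaling or spread between animals.

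The members and lists were chosen with earlier results of these data known. Genes named were the members, miRNA genes within 10 kb, those sharing a full or offset seed, the 3 nearest in level, list members behind a count and the leading markers. Genes next to Mir301 in rank, Mir141, Mir200c, Mir142, Mir145a, Mir214, Mir199a-2 and the widest seed groups were named after their values were seen. So were the genes said to be missing from seed groups or left out of the proliferation list. Nothing separates biological from technical spread between the 2 libraries.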

Additional observations from a re-analysis of the deposited data

Results flagged for a closer look

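Mir130a had 13 counts in the opposite-strand column in replicate 1 and 2 in replicate 2, data that no comparison above uses. The 13 counts exceed 3, the limit that a count of 0 allows, beside 22839 counts on the gene's own strand. No annotated gene overlaps Mir130a on the plus strand, and the other 3 family members had 0 opposite-strand counts in both libraries.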

How the results depend on the processing

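The gap between Mir301 and the median of its relatives stayed within its counting interval in all 10 alternatives, from 3.18 to 3.36. Scaling factors cancel in that gap but for the prior count, so alternatives that change only them could not move it far. The 3.36 arose where Mir301b, below a mean of 100 counts, dropped out of the relatives. The few counts of Mir301b also make the interval wide. The log2 ratio of Mir301 stayed within its own counting interval in 9 of 10 alternatives and moved to 2.55 with library totals. The family share moved to 0.781% in the column that ignores strand, where 959702 reads in replicate 1 and 1162285 in replicate 2 stand on the ambiguous line and miRNA counts total 2837768 and 3872233, and ran from 0.523% to 0.659% with either library left out. Genes past 2-fold numbered 64, 97 with library totals and 157 with a minimum of 1 count, which lets in 588 genes. Scalings of the gene lists were added after seeing the data, and their changes stand beside each list. Ratios of Mir130a moved outside its narrow interval in 6 of 10 alternatives, from -0.45 to 0.04. A ratio between libraries cannot be formed with 1 library left out. Scaling and the prior do not enter the share. No paired analysis was possible because there is 1 group. The 28 and 23 counts of Mir301b limit every statement on it.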

Other observations

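Lists for vessels and for proliferation, known settings of this family and of Ska2, had medians below 0, as did all 358 detected genes together. The part of either setting in the log2 ratio of Mir301, 2.98, was not tested. Of 6 vascular genes, all detected, 1 was at least 2-fold higher in replicate 2, Mir296 at a log2 ratio of 1.28, and 2 were lower, Mir221 at -1.34 and Mir222 at -1.65. Over all 358 detected genes, 9.22% were higher and 8.66% lower. With library totals Mir296 was no longer past 2-fold. Mir126a, the main endothelial miRNA gene, stood at 0.41, and the list median was -0.40, beside -0.06 over all 358 detected genes. Of 8 genes of the proliferation-linked clusters, 7 were detected, 0 were past 2-fold in either direction, beside 17.9% of all detected genes, and the median was -0.58. That 0 depends on the scaling: with library totals Mir17, Mir20a, Mir93 and Mir106b were past 2-fold lower, and with DESeq2 size factors Mir92-1 was past 2-fold higher. Mir93, at 20368 and 11640 counts, had a log2 ratio of -0.78, close to the -0.74 of Mir130b, and Mir17, at 18896 and 12316 counts, one of -0.59. Mir92-1, the only detected gene of this list above 0, stood at 0.95. These counts hold for the listed genes alone. Among others, the list leaves out Mir19b-1, 41 bases from Mir20a, at 0.86 on 11 and 20 counts. It also leaves out Mir106a and Mir20b, which share a seed with Mir17 and stood at -2.04 and -2.09.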
